A study of Mus musculus with 6 samples.

Results

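The genes described here encode the subunits of the mitochondrial respiratory chain and of ATP synthase. Members were the protein-coding genes whose symbols begin with Nduf, Sdh (a to d), Uqcr, Cox4 to Cox8 or Atp5, together with Cyc1, Cycs and the genes of mitochondrial DNA that encode subunits. The rule took in 108 of the 37991 genes counted, of which 95 are nuclear and 13 are mitochondrially encoded, and it left out 11 pseudogene entries that match the symbols. Among the nuclear members were 36 complex I subunits, 8 complex I assembly factors of the Ndufaf family, 4 subunits of complex II, 10 genes of complex III and cytochrome c, 20 of complex IV and 17 of ATP synthase. The RNA came from spleen natural killer (NK) cells of C57BL6 mice, positive for both CD27 and CD11b, a surface phenotype of an intermediate stage of NK cell maturation. Libraries of 3 wildtype samples were compared with those of 3 Rroid-deficient samples. Rroid is the name of a long noncoding RNA locus near Id2, a transcriptional regulator needed by innate lymphoid cells. Not given in the sources used here were age and sex of the mice, how the deficiency was made, and whether each library came from a separate mouse. All p-values therefore reflect the spread between these libraries alone, and that spread may be technical.

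The respiratory chain passes electrons from NADH, through complex I, and from succinate, through complex II, by way of ubiquinone to complex III, cytochrome c and complex IV, where oxygen is reduced. Complexes I, III and IV move protons across the inner mitochondrial membrane, and ATP synthase uses their return to make ATP. All of these complexes except complex II combine subunits from nuclear genes with subunits encoded on the small circular mitochondrial DNA. NK cells draw on both glycolysis and oxidative phosphorylation, and their demand rises on activation.

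Between 5823626 and 9216430 reads were assigned to genes per library, so that 3 counts, the limit that a count of 0 allows, stood for 0.322 to 0.489 CPM (counts scaled to library size), covering counting error only. Wildtype library 1 and deficient library 1 had 5.63% and 5.57% of the tested genes at 0, against 0.230% to 2.43% in the other libraries. Id2 had 468, 338 and 341 CPM in wildtype and 38.9, 66.7 and 81.2 CPM in deficient libraries (fitted log2 fold change -2.62, SE 0.30, adjusted p = 0.0308 in edgeR's quasi-likelihood test). The 10 NK cell markers examined were detected, with a summed level of 11256 to 13414 CPM in wildtype and 9304 to 10510 in deficient libraries. The 11 T cell markers summed to 171 to 266 CPM against 346 to 451, with Cd6 and Cd8a at 0 in every library and Cd3e, Cd4 and Cd8b1 at 0 in every deficient library. Cd3g (6.22 ± 1.91 CPM in wildtype, 63.4 ± 7.44 in deficient libraries), Cd3d (6.79 ± 1.85 and 49.2 ± 22.4) and Trbc2 (51.4 ± 10.4 and 111 ± 17.3) held most of the difference. The 9 monocyte and macrophage markers summed to 7.39 to 12.9 CPM against 24.1 to 30.4, with C1qa and Cd14 at 0. Of these, Cd68 had 4.87 ± 5.57 and 23.7 ± 5.86 CPM and Csf1r 2.74 ± 1.40 and 1.79 ± 1.55. The 6 erythroid markers found summed to 6.34 to 17.5 CPM in wildtype and 0 to 4.15 in deficient libraries, with Klf1 at 0. These sums, each carried by a few of its genes, moved with the genotype, and their part in the results for the respiratory genes was not tested. In RNA from whole samples, fewer cells of one kind and less RNA per cell cannot be told apart.

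The summed level of the nuclear respiratory genes was 4324, 4034 and 3851 CPM in wildtype and 4262, 3907 and 4054 CPM in deficient libraries. The groups overlapped, with means of 4069 ± 238 and 4074 ± 178 CPM (SD, n = 3 each). After the filter on low counts 85 of the 95 nuclear members were tested. None passed an adjusted p of 0.05 in edgeR, which called 2 of the 11724 genes tested (0.0171%), and none passed in DESeq2, which called 64 of 11661 (0.549%), or in limma-voom. At an unadjusted p below 0.05 edgeR listed 1 nuclear member, Cycs, lower in the deficient libraries, and 0 higher, beside 2.52% and 2.76% of all genes tested (5.29% in either direction). Without a filter on low counts edgeR called 0.495% of 19782 genes and again 0 members. The nuclear members divided into 40 positive and 45 negative fold changes. Their median log2 fold change was -0.01, with quartiles of -0.35 and 0.31, and the median over all genes tested was 0.02. The median SE of a nuclear member was 0.58 on the log2 scale, so a change of 2-fold in a single member would lie within its usual 95% interval.

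**Figure D1:**
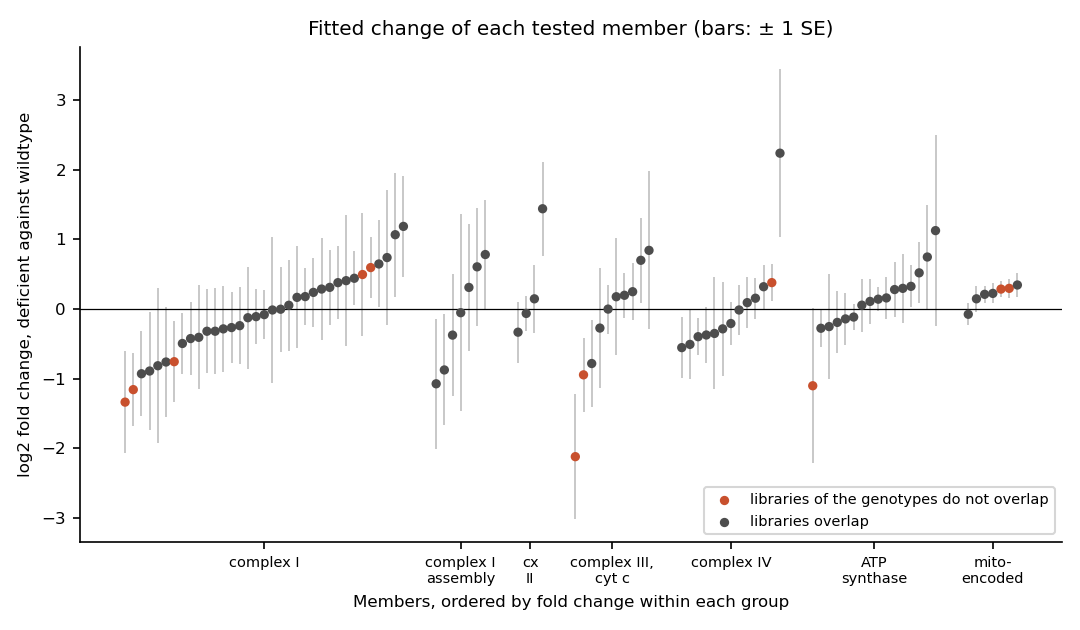
Fitted log2 fold change of each tested member (y axis) with bars of 1 SE, ordered within each group of genes (x axis). Orange points mark members whose libraries did not overlap between genotypes, and the points lie on both sides of 0 in every group. The mitochondrially encoded members lie between -0.07 and 0.35.

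The genotypes did not overlap in 9 of the tested nuclear members, 3 of them higher and 6 lower in the deficient libraries. These are 3.53% and 7.06% of the tested nuclear members, beside 6.03% and 6.33% of all genes tested, so the shares were near those of the whole table. The count changed when libraries were left out. Leaving out wildtype library 1, 2 or 3 gave 8, 6 or 5 members higher, and leaving out deficient library 1 or 2 gave 11 in each case. Without wildtype library 3, or without deficient library 2 or 3, 15, 12 or 13 members were lower. With fewer libraries per group a separation is easier to reach. The matching shares over all genes are not given here, so these counts are not read as a result about the members. With the counts of pseudogenes that share windows added to their members, an alternative chosen after seeing the data, 3 were higher and 5 lower.

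**Figure D2:**
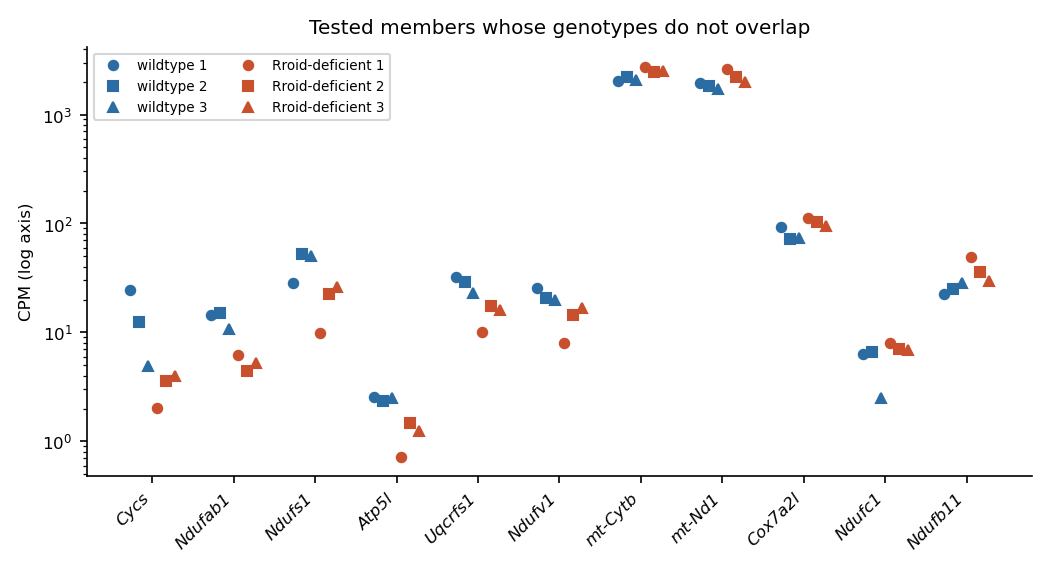
CPM (y axis, log scale) of the 11 tested members, 9 nuclear and 2 mitochondrially encoded, whose wildtype (blue) and deficient (orange) libraries did not overlap, with marker shapes for library 1, 2 and 3. Within Cycs the wildtype libraries alone span 4.88 to 24.6 CPM.

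Complex I, the NADH dehydrogenase, had 35 of its 36 nuclear subunits tested, with 15 positive and 20 negative fold changes and a median log2 fold change of -0.08. Its summed level was 894 ± 53.3 CPM in wildtype and 885 ± 39.8 CPM in deficient libraries. The 7 nuclear genes of its catalytic core gave 2 positive and 5 negative fold changes with a median of -0.32, and the 28 accessory subunits gave 13 and 15 with a median of -0.01. Ndufs1, the iron-sulfur subunit that carries electrons through the peripheral arm, had 28.6, 52.0 and 49.9 CPM in wildtype and 9.95, 22.5 and 26 CPM in deficient libraries. All deficient values were below all wildtype values, with deficient library 3 close under wildtype library 1. Its fitted change was -1.16 on the log2 scale (SE 0.52, 95% interval -2.32 to 0.01, adjusted p = 0.914 by edgeR). A noncoding gene, Ino80dos, shares 1.62% of the 100-base windows of Ndufs1 and had 41, 78 and 71 counts in wildtype and 6, 29 and 26 in deficient libraries. The use of strand in counting is unknown here, and reads from the shared stretch cannot be told apart.

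Ndufv1, the flavoprotein subunit where NADH is oxidised, had 25.6, 20.8 and 19.98 CPM in wildtype and 8.07, 14.4 and 16.9 in deficient libraries. The highest deficient value lay under the lowest wildtype value, and the log2 fold change was -0.76 (SE 0.58). Ndufab1, the mitochondrial acyl carrier protein, which also sits in complex I, had 14.5, 14.9 and 10.7 CPM against 6.20, 4.40 and 5.25. The genotypes did not overlap, and the log2 fold change was -1.34 (SE 0.74, adjusted p = 0.925 by edgeR). Its processed pseudogene Gm4459 shares 269 of its 4468 windows (6.02%). Windows were pooled over all coding transcripts of a gene, so long transcripts can lower this share. Gm4459 had 93, 36 and 17 counts against 53, 24 and 31, where Ndufab1 had 97, 139 and 68 against 43, 27 and 38. With the counts of this and a further pseudogene added, the levels were 30.7, 20.8 and 14.6 CPM against 14.99, 9.46 and 10.8, and the genotypes overlapped. On the other side, Ndufb11, an accessory subunit of the membrane arm, had 22.5, 25 and 28.3 CPM in wildtype and 49.4, 35.6 and 29.6 in deficient ones (log2 fold change 0.60, SE 0.44). Ndufc1, another accessory subunit, had 6.29, 6.66 and 2.52 CPM against 7.93, 7.01 and 6.91, where the 2 nearest libraries differed by less than 1 CPM. Ndufa3, the complex I gene with the highest level per kb of transcript, overlapped between genotypes at 56.3, 26.7 and 22.5 CPM against 42.5, 15.3 and 31.5. Ndufb4, the subunit that was not tested, had 0 to 18 counts.

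The Ndufaf genes encode factors that help to assemble complex I and are not part of the finished enzyme. Of the 8, 7 were tested, with 3 positive and 4 negative fold changes, a median of -0.05 and no member whose genotypes separated. The remaining one, Ndufaf6, had 0 to 26 counts. Their summed level was 86.2 ± 9.17 CPM in wildtype and 86.9 ± 28.2 CPM in deficient libraries. Ndufaf7, a methyltransferase, had 27.3, 21.7 and 11.5 CPM against 3.32, 1.96 and 23.4, so deficient library 3 stood with the wildtype ones. Ndufaf3 had 16, 14.5 and 9.91 CPM against 3.03, 5.71 and 13.3, and Ndufaf8, the most abundant per kb, 3.74, 4.19 and 7.55 against 8.94, 7.18 and 7.47. In both genes the ranges overlapped.

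Complex II, succinate dehydrogenase, is also an enzyme of the citric acid cycle and has no mitochondrially encoded subunit. Its 4 genes were all tested, summed to 294 ± 44.6 CPM in wildtype and 333 ± 73.7 CPM in deficient libraries, and gave 2 positive and 2 negative fold changes. Sdha, the flavoprotein, had 173, 229 and 174 CPM against 159.9, 244 and 146. Sdhb, the iron-sulfur subunit, had 39.1, 33.5 and 27.1 CPM against 25.1, 29.0 and 25. In both, the genotypes overlapped. Sdhd, a membrane anchor, had 13.6, 35.2 and 37.9 CPM in wildtype and 167, 28.1 and 41.1 in deficient libraries. Its log2 fold change of 1.44 (SE 0.67, adjusted p = 0.914 by edgeR) rested on deficient library 1 and wildtype library 1, and without both it was -0.085.

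Complex III passes electrons from ubiquinol to cytochrome c, the small soluble carrier that also triggers apoptosis when it leaves mitochondria. The 10 genes, all tested, summed to 336 ± 89.6 CPM in wildtype and 315 ± 43.8 CPM in deficient libraries, with 5 positive and 5 negative fold changes. Cycs, the gene of somatic cytochrome c, had 24.6, 12.6 and 4.88 CPM in wildtype and 2.02, 3.59 and 4.01 CPM in deficient libraries. The genotypes did not overlap, although wildtype library 3 lay within 1 CPM of the highest deficient library. Its log2 fold change of -2.12 (SE 0.90, 95% interval -4.12 to -0.12) had an unadjusted p of 0.0397 and an adjusted p of 0.914 in edgeR. Of the 100-base windows in the Cycs transcripts, 24.7% have an exact copy in another annotated gene. The copy sharing most, Gm10053, had 3, 15 and 15 counts in wildtype and 5, 16 and 6 in deficient libraries, where Cycs itself had 164, 117 and 31 against 14, 22 and 29. Uqcrfs1, the Rieske iron-sulfur protein of complex III, had 32.2, 29.1 and 23.0 CPM against 10.1, 17.6 and 16, without overlap (log2 fold change -0.95, SE 0.53, adjusted p = 0.925 by edgeR). Uqcrh, the hinge protein and the complex III gene with the highest level per kb, had 68.3, 69.2 and 63.9 CPM against 72.4, 57.6 and 101, which overlapped.

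Complex IV, cytochrome c oxidase, had 13 of 20 nuclear genes tested, with 5 positive and 8 negative fold changes and a median log2 fold change of -0.21. Its summed level was 762 ± 103 CPM in wildtype and 723 ± 18.9 CPM in deficient libraries. Cox7a2l, a relative of Cox7a2, had 93.8, 72.2 and 73.6 CPM in wildtype and 112, 104 and 95 in deficient libraries. It was the only tested gene of the complex whose genotypes separated, at a log2 fold change of 0.38 (SE 0.27, adjusted p = 0.925 by edgeR). A processed pseudogene, Gm6969, shares 9.98% of its windows and had 27, 45 and 19 counts against 49, 48 and 43, beside 626, 672 and 468 against 780, 639 and 687 counts of Cox7a2l.

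Several complex IV subunits have tissue isoforms, and in these NK cells the widely expressed form carried most of the counts. Cox4i1 had 160.0, 146 and 133 CPM in wildtype and 104, 86.3 and 143 CPM in deficient libraries, while Cox4i2, the isoform of lung and of low oxygen, had 0 counts in all 6. The log2 fold change of Cox4i1 was -0.40 (SE 0.26), and the ranges overlapped through deficient library 3. Cox7b2 and Cox8c, known from testis, were also at 0 in every library, and Cox8b, a heart and muscle form, had 5 counts in wildtype library 3 and 0 elsewhere. Their counterparts Cox7b, at 53.0 to 75.9 CPM, and Cox8a, at 76.1 to 119 CPM, were present in all libraries of both genotypes. Cox6b1 had 76.4, 65.7 and 56.9 CPM against 93.8, 59.5 and 43.8, and its testis counterpart Cox6b2 had at most 5 counts. Cox7a2 had 83.1, 29.96 and 47.5 CPM against 20.6, 40.9 and 51.3, and its muscle counterpart Cox7a1 had at most 13 counts. Ndufa4, now assigned to complex IV despite its name, had 80.4, 57.1 and 65.9 CPM against 27.1, 65.6 and 64.4, beside a single count of Ndufa4l2 in all libraries together.

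Cox6a2, the heart and skeletal muscle form of subunit VIa, was the only tissue form named here that passed the filter on low counts. It had 8, 13 and 9 counts in wildtype and 5, 57 and 66 counts in deficient libraries, or 1.20, 1.40 and 1.42 CPM against 0.721, 9.30 and 9.13. Deficient libraries 2 and 3 stood above all wildtype libraries and deficient library 1 below them, so the genotypes overlapped. The log2 fold change of 2.24 (SE 1.20, 95% interval -0.44 to 4.92, adjusted p = 0.925 by edgeR) was the highest of the nuclear members. Its counterpart Cox6a1 had 64.6, 76.7 and 68.9 CPM against 113, 86.5 and 62.8, far above Cox6a2 in every library.

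ATP synthase had 16 of 17 nuclear genes tested, with 10 positive and 6 negative fold changes and a median log2 fold change of 0.13. It made up 42.1% of the summed CPM of the nuclear members, against 21.8% for complex I and 18.2% for complex IV. The sum was 1698 ± 9.45 CPM in wildtype and 1732 ± 111 CPM in deficient libraries. Atp5b, the catalytic beta subunit, had 629, 746 and 736 CPM in wildtype and 817, 524 and 608 in deficient libraries, where deficient library 1 was the highest and deficient library 2 the lowest of all 6. Atp5o, the stalk protein that confers sensitivity to oligomycin, had 23.8, 30.5 and 27.1 CPM against 50.02, 29.5 and 37.2 (log2 fold change 0.52, SE 0.44). Its ranges overlapped through deficient library 2. The proton-carrying c ring is encoded by 3 genes with the same mature protein. Per kb, Atp5g3 stood at 97.1 CPM, Atp5g1 at 3.39 and Atp5g2 at 2.73. The lower levels are also uncertain because of copied sequence. Of the windows of Atp5g2, 34.7% have an exact copy elsewhere. The pseudogene Gm10039 shares 285 of the 4831 pooled windows of Atp5g1 (5.90%). It had 264, 252 and 167 counts against 222, 137 and 205, beside 60, 84 and 73 against 34, 53 and 81 for Atp5g1. Atp5g3 had 66.2, 62.0 and 57.6 CPM against 83.5, 64.0 and 85.5, Atp5g1 had 8.99, 9.02 and 11.5 against 4.90, 8.65 and 11.2, and Atp5g2 had 43, 4 and 9 counts against 4, 2 and 3 and was not tested.

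Atp5l, subunit g of the membrane part, was the ATP synthase gene whose genotypes separated, at 2.55, 2.36 and 2.52 CPM against 0.721, 1.47 and 1.24. It lies under the 2 CPM mean set for naming and was named after its values were seen. These values stand for 17, 22 and 16 counts against 5, 9 and 9. Of the windows of Atp5l, 69.0% have an exact copy in another annotated gene, and its processed pseudogene Gm10221 had 518, 221 and 159 counts in wildtype and 120, 112 and 245 in deficient libraries. The annotated parent gene thus held fewer counts than its copy in every library. Reads from the shared windows cannot be told apart, and the level of Atp5l is uncertain. With the pseudogenes added the genotypes overlapped, at 80.1, 26.1 and 27.5 CPM against 18.2, 19.7 and 35.1.

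**Figure D3:**
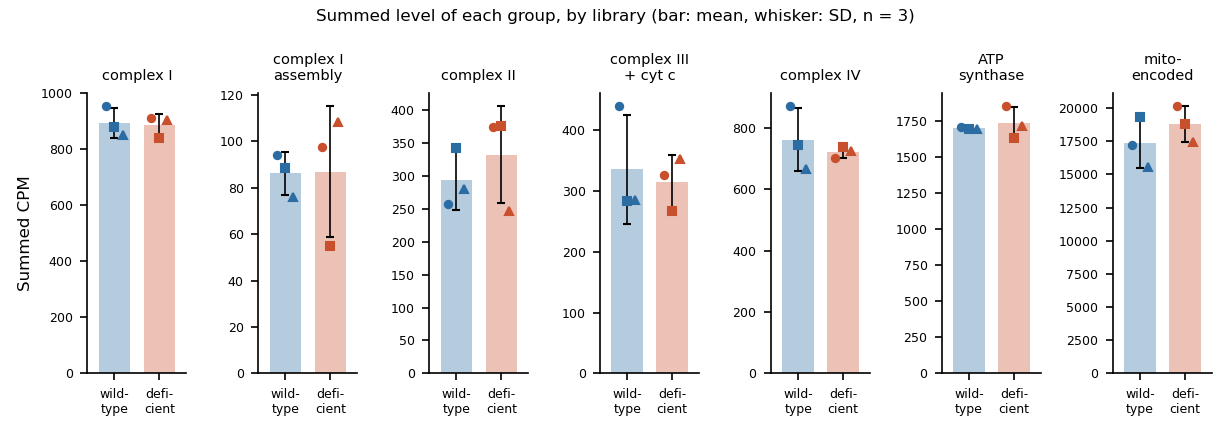
Summed CPM (y axes, each from 0) of the members of each group in wildtype (blue) and deficient (orange) libraries, with bars for the mean, whiskers for the SD (n = 3) and a point per library. The libraries of the genotypes overlap in every panel.

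The mitochondrially encoded members held 1.59% to 1.95% of assigned reads, against 0.390% to 0.420% for the nuclear members. Their counts fell into separate classes along the mitochondrial DNA. A run of 6 neighbouring genes, the fourth to the ninth of the 13 in gene order (mt-Co2, mt-Atp8, mt-Atp6, mt-Co3, mt-Nd3 and mt-Nd4l), had 0 to 13 counts in each library of either genotype. The other 7 genes had 2108 to 96282. All but mt-Nd6 lie on the same strand, and genes on both sides of the run were abundant. The 6 genes were removed by the filter, and no level of transcription can be read from their counts.

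The annotation lists near-identical copies of this run in the nuclear genome. Unprocessed pseudogenes that match mt-Co1, mt-Co2, mt-Atp6, mt-Co3, mt-Nd3, mt-Nd4l and mt-Nd4 lie side by side in 4663 bases of chr1:24611535-24616197 (GRCm38), on the minus strand and in the same gene order. Every 100-base window of each gene, the length of the reads, was searched for an exact copy in another annotated transcript. Copies covered 99.5% of the windows of mt-Co2 and of mt-Atp6, 99.9% of mt-Co3, 97.6% of mt-Nd3 and 98.5% of mt-Nd4l. Among the abundant genes the copied share was 60.8% in mt-Nd4, 30.8% in mt-Co1, 3.19% in mt-Nd2 and 0% in mt-Nd1, mt-Nd5, mt-Nd6 and mt-Cytb. mt-Atp8, at 0 counts in all libraries, has no annotated copy. It starts between mt-Co2 and mt-Atp6 and overlaps the first bases of mt-Atp6, and the annotated copies of those genes on chromosome 1 are separated by 233 bases whose sequence was not analysed here. Between 24.5% and 27.3% of all listed counts were set aside as alignments that are not unique. Whether these are reads or alignments is not given, and how many of them came from these genes was not tested. Of the 7 copies in this block only Gm10222, the pseudogene of mt-Nd4l, was among the genes counted, so the others cannot be compared. It had 0, 31 and 1 counts in wildtype and 60, 84 and 72 in deficient libraries, a separation between genotypes at a locus whose windows the mitochondrial gene shares. Gm10222 was not among the genes set for naming. The following stretches, from GENCODE transcripts of GRCm38, show how closely gene and copy match. Capitals mark the bases at which gene and copy differ, numbered from 1 at the first annotated base of the mitochondrial gene, and mt-Cytb, which has no copy, is given for contrast.
mt-Nd3, bases 1 to 70: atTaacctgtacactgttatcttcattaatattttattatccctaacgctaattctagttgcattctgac
Gm28438, its copy: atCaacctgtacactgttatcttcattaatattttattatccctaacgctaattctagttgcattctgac
mt-Co1, bases 1054 to 1123: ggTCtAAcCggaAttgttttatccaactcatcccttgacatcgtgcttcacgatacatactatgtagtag
Gm29216, its copy: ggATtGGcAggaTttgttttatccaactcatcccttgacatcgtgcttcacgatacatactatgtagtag
mt-Cytb, bases 1 to 70: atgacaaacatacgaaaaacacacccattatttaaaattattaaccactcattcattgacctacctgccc
The copy of mt-Nd3 differs from the gene at a single base in 345, T3C, an identity of 99.7%. The copy of mt-Co1 covers only the 3' end of the gene and differs at T1056A, C1057T, A1059G, A1060G, C1062A and A1066T, after which the sequences are the same. The copies of mt-Co2, mt-Atp6, mt-Co3, mt-Nd4l and mt-Nd4 have 0 mismatches over the aligned bases.

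**Figure D4:**
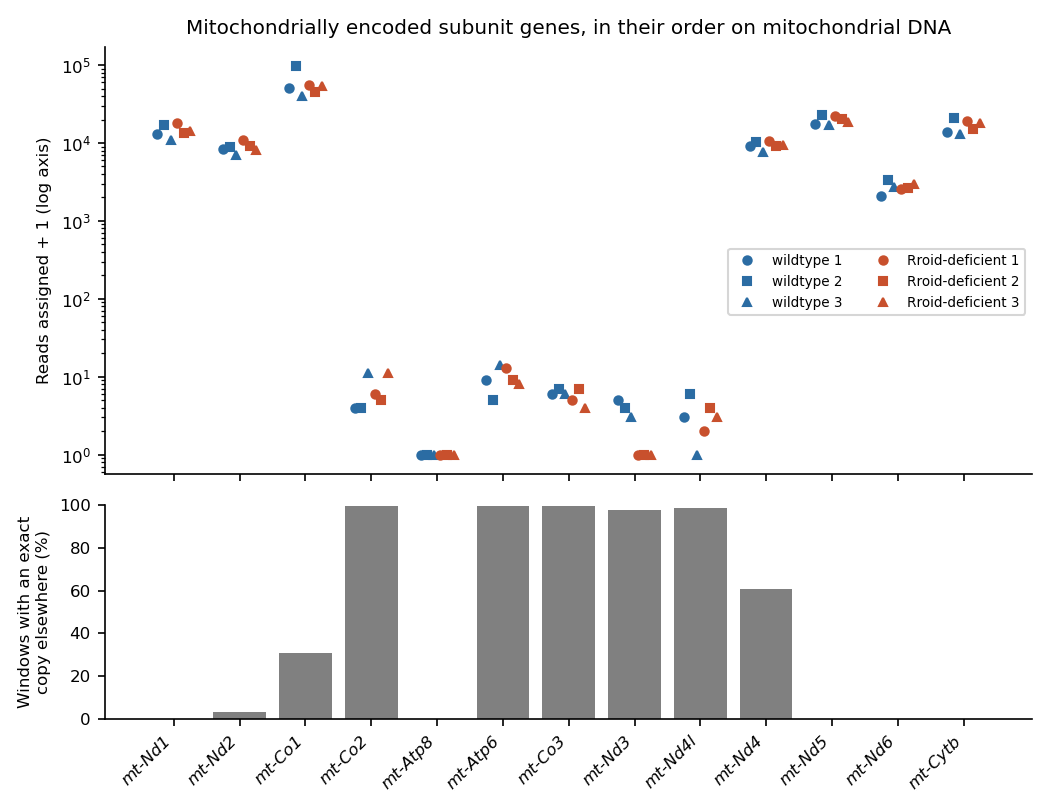
Reads assigned to each mitochondrially encoded gene in its order on mitochondrial DNA (upper panel, counts + 1, log axis, one point per library, wildtype blue and deficient orange) above the percentage of its 100-base windows with an exact copy in another annotated transcript (lower panel). The 6 genes from mt-Co2 to mt-Nd4l have at most 13 counts, and 5 of them have copies in at least 97.6% of windows.

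The 7 mitochondrially encoded genes that could be tested had 6 positive fold changes and 1 negative (14.3%, beside 48.4% of all genes tested). Their median log2 fold change was 0.22 beside 0.02 for all genes. None passed an adjusted p of 0.05 in edgeR, DESeq2 or limma-voom. At an unadjusted p below 0.05 edgeR listed 1, mt-Cytb, higher in the deficient libraries, beside 2.76% higher and 2.52% lower among all genes tested. Mitochondrial genes of a strand are transcribed together, so their values are not independent of each other. mt-Cytb, the cytochrome b subunit of complex III, had 2050.1, 2218 and 2074 CPM in wildtype and 2757, 2464 and 2516 CPM in deficient libraries. The genotypes did not overlap, and the log2 fold change of 0.29 (SE 0.12, 95% interval 0.03 to 0.54) had an unadjusted p of 0.032 and an adjusted p of 0.914 in edgeR. mt-Nd1, a membrane subunit of complex I, had 1962, 1841 and 1730.0 CPM against 2599, 2207 and 1993, also without overlap (log2 fold change 0.30, SE 0.14). These 2 are 28.6% of the 7, beside 6.03% of all genes tested that were higher without overlap. With so few genes that are not independent, no excess is read from this share.

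The other complex I genes overlapped between genotypes. mt-Nd2 had 1242, 965 and 1090.1 CPM against 1558, 1514 and 1118, mt-Nd4 had 1385, 1104 and 1204 against 1523, 1485 and 1307, and mt-Nd5 had 2658, 2489 and 2698 against 3204, 3289.5 and 2592. In each of the 3 genes deficient libraries 1 and 2 were above all wildtype libraries and deficient library 3 was not. mt-Nd6, the subunit gene on the opposite strand, had 316, 360.0 and 428 CPM against 373, 437 and 412. mt-Co1, the catalytic subunit of complex IV, was the negative one at 7627, 10339 and 6296 CPM against 8108, 7427 and 7498 (log2 fold change -0.07, SE 0.16). It takes its sign from wildtype library 2, without which it was 0.14.

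Summed over all 13 genes, the level was 17242, 19317 and 15525 CPM in wildtype and 20125, 18827 and 17439 in deficient libraries, which overlapped. Without mt-Co1, set apart after its values were seen, the sums were 9616, 8978 and 9229 CPM against 12017, 11400 and 9941, which did not. Set against the mitochondrial ribosomal RNAs, which took 19.1% to 23.4% of assigned reads, the subunit genes had 7.15, 8.36 and 8.85 reads per 100 ribosomal reads in wildtype and 9.73, 9.53 and 8.03 in deficient libraries, with overlap. The ratio of mitochondrial to nuclear member CPM was 3.99, 4.79 and 4.03 in wildtype and 4.72, 4.82 and 4.30 in deficient libraries, and it overlapped too. When a trend of the counts with GC content was removed from each library, the median of the 7 genes was 0.072 beside 0.089 for all genes, and mt-Nd6 turned to -0.061.

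**Figure D5:**
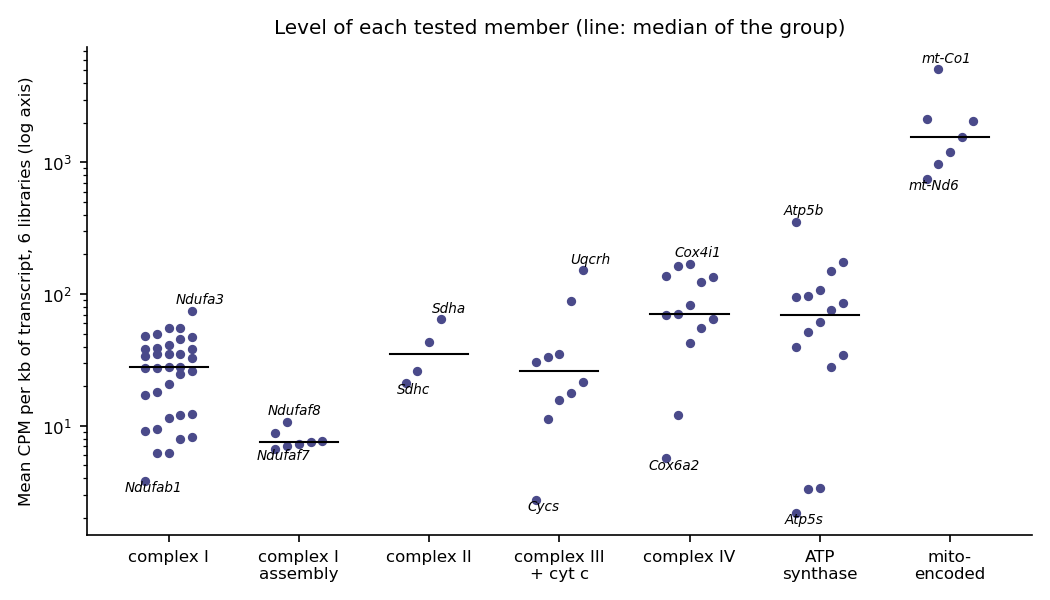
Mean CPM per kb of transcript over the 6 libraries (y axis, log scale) for each tested member, by group (x axis), with a line at the median of the group and names at the highest and lowest member. The nuclear groups have medians from 7.50 to 70.7 and the mitochondrially encoded genes one of 1547.

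Levels per kb of transcript differed widely between genes of one group, and not every gene of a group encodes a subunit of the complex. Averaged over the 6 libraries, ATP synthase genes ran from 2.19 CPM per kb for Atp5s to 353 for Atp5b, complex IV from 5.68 for Cox6a2 to 171 for Cox4i1, and complex III with cytochrome c from 2.75 for Cycs to 152 for Uqcrh. Complex I genes ran from 3.81 for Ndufab1 to 75 for Ndufa3 and complex II genes from 21.2 for Sdhc to 64.7 for Sdha. The coding transcripts averaged 2447.5 bases for Ndufab1 and 433 for Ndufa3, so the complex I range depends on annotated length. Medians were 70.7 CPM per kb in complex IV, 68.9 in ATP synthase, 34.9 in complex II, 27.9 in complex I, 26.1 in complex III with cytochrome c and 7.50 among the assembly factors. The tested mitochondrially encoded genes had a median of 1547 CPM per kb, from 747 for mt-Nd6 to 5102 for mt-Co1, the highest of all members. If only windows without a copy can receive reads, mt-Co1 stood at 7882 CPM per 1000 such windows and mt-Nd4 at 2658. mt-Nd4 then ranks second of the 7, above mt-Nd1 at 2395.5 and mt-Cytb at 2245, whereas per kb it was the sixth at 968.

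The spread of the nuclear members was uneven among the libraries. Deficient library 1 was the highest or the lowest of the 6 in 64.7% of the 85 tested nuclear members (22 highest, 33 lowest), beside 50.9% of all genes tested, and wildtype library 1 in 45.9% beside 54.3%. The median coefficient of variation of the nuclear members was 20.9% among wildtype and 38.4% among deficient libraries, and it was 11.6% and 8.02% for the mitochondrially encoded members. Over all genes tested it was 38.8% and 44.8%. At a mean of at least 20 CPM it was 18.1% and 32.0% for nuclear members, beside 26.4% and 30.1% for all genes. Of the 85 tested nuclear members, 12 differed by 10-fold or more between libraries and 1, Ndufaf2, had a library at 0, beside 2139 and 1313 of the 11724 genes tested. Among these, Uqcrc1, a core protein of complex III, had 38.8, 29.2 and 28.5 CPM in wildtype and 1.73, 53.7 and 24.5 in deficient libraries. Ndufa9, a complex I subunit, had 1.35, 31.6 and 57.6 CPM against 55.3, 91.2 and 43.3, and Ndufb3, also of complex I, had 39.1, 21.9 and 22.0 against 1.44, 24.0 and 19.4. All 3 were named after their values were seen. In each of them the extreme value lay in library 1 of one genotype and the remaining libraries overlapped.

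Promoters of the nuclear members were compared as sequence, since the genes are known targets of the factors NRF1, GABP and YY1. A window of 250 bases before to 50 bases after the start, from RefSeq (GRCm38.p6), was found for 75 of the 95 nuclear members and 17491 protein-coding genes. The NRF1 core (GCGCA, any base, then GCGC), searched on both strands, stood in 19 of the 75 (25.3%) beside 7.17% of all these genes. The YY1 core AANATGGCG, on either strand as well, stood in 11 (14.7%) beside 3.64%, and the GABP site CCGGAAGT in 5 (6.67%) beside 5.69%. Sdha holds 3 matches to the NRF1 core and Cox6a1 holds 2. They are shown as abundant members with several matches, which stand in capitals. A match is a description of the letters and not a bound site.
Sdha, chr13:74350191-74350490, minus strand: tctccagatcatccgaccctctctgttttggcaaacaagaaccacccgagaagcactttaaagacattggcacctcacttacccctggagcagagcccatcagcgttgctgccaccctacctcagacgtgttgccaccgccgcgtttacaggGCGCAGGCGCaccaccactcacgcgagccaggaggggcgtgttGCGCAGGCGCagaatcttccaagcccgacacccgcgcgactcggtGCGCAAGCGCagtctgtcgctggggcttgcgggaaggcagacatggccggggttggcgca
Cox6a1, chr5:115348909-115349208, minus strand: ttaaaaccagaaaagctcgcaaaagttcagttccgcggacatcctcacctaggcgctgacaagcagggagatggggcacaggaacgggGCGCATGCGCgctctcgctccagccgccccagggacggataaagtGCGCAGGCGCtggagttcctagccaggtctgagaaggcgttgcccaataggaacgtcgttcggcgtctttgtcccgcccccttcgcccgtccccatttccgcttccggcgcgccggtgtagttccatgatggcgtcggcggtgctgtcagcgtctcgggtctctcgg
Neither gene separated between genotypes (log2 fold change -0.06, SE 0.26 for Sdha and 0.32, SE 0.32 for Cox6a1). NRF1 itself, encoded by Nrf1, had 45.5 ± 4.88 CPM in wildtype and 56.1 ± 18.7 CPM in deficient libraries. Gabpa, the DNA-binding subunit of GABP, had 137 ± 21.5 CPM against 130.0 ± 4.73, and Yy1 47.9 ± 9.69 against 53.4 ± 13.8.

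Around the respiratory chain, 6 lists of genes were followed, and none of their members passed the adjusted threshold in edgeR. Beside the counts given for each list, 2.76% of all genes tested were higher and 2.52% lower at an unadjusted p below 0.05, and 6.03% and 6.33% were higher and lower without overlap. Of 14 transcriptional regulators of nuclear respiratory genes 13 were tested, with 1 higher and 0 lower at an unadjusted p below 0.05. That gene was Ppargc1b, a coactivator of mitochondrial biogenesis, at 0, 1.07 and 1.42 CPM in wildtype and 14.6, 19.7 and 9.40 CPM in deficient ones (log2 fold change 4.10, SE 1.23, adjusted p = 0.895 by edgeR). All deficient libraries lay above the wildtype ones. Hcfc1, a coactivator of GABP and YY1 targets, had 263 ± 19.5 CPM against 307 ± 50.5. The list's median log2 fold change was 0.09.

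The 16 genes of other electron donors to ubiquinone and of ubiquinone synthesis had 15 tested, of which 0 were higher and 3 lower at an unadjusted p below 0.05, with a median log2 fold change of -0.38. Etfb, a subunit of the flavoprotein that takes electrons from fatty acid oxidation, had 79.99, 52.1 and 57.7 CPM in wildtype and 28.0, 35.4 and 28.2 in deficient ones (log2 fold change -1.05, SE 0.38, adjusted p = 0.906 by edgeR). Etfdh, the enzyme that passes those electrons on to ubiquinone, had 91.1, 50.7 and 59.9 CPM against 37.5, 33.1 and 36.5 and was named after its values were seen. Coq4, needed for ubiquinone synthesis, had 8.54, 6.66 and 2.52 CPM against 0.721, 0.163 and 0.968. In all 3 genes the genotypes did not overlap, which are 3 of 15 or 20% of the list, beside 6.33% of all genes tested. In the other direction 1 gene, Dhodh, did not overlap (6.67% beside 6.03%). It had 2.40, 4.08 and 4.88 CPM against 19.6, 11.4 and 5.67 and was named after its values were seen. The list gave 6 positive and 9 negative fold changes.

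Of 22 genes of pyruvate dehydrogenase and the citric acid cycle 21 were tested, 0 higher and 1 lower at an unadjusted p below 0.05, with a median of -0.04. The lower gene, fumarate hydratase (Fh1), had 26.5, 25 and 15.9 CPM against 6.05, 4.24 and 12.2, without overlap, and Idh3a, a subunit of NAD-dependent isocitrate dehydrogenase, had 24.7 ± 11.3 CPM against 14.8 ± 1.88. Among 23 genes of mitochondrial DNA expression and maintenance, all tested, 2 were higher and 1 lower, with a median of -0.04. Supv3l1, a helicase of mitochondrial RNA decay, had 1.95, 2.9 and 9.60 CPM against 144, 12.7 and 11.6, and Trmt10c, a subunit of mitochondrial RNase P, had 30.1, 21.9 and 21.2 against 2.74, 3.92 and 14.5. The mean of Supv3l1 was set by deficient library 1, although the other deficient libraries also lay above the wildtype ones. Of 38 assembly factors outside the Nduf family 36 were tested, 1 higher and 0 lower, with a median of 0.28. Uqcc1, an assembly factor of complex III, had 6.21 ± 3.96 CPM in wildtype and 22.8 ± 4.37 CPM in deficient libraries, and Cox19, a factor of copper delivery to complex IV, had 14.9 ± 11.6 against 4.03 ± 2.99. The 12 mitochondrial carriers, channels and coupling factors, all tested, had 0 at an unadjusted p below 0.05 in either direction and a median of -0.06. Their smallest p values belonged to Mcu, the calcium uniporter, at 11.3 ± 3.89 CPM against 29.1 ± 17.9, and Mpc1, a pyruvate carrier, at 0.881 ± 0.636 against 3.07 ± 2.48.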

How the data were processed

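After TRIzol and column extraction, RNA went through the Ovation RNA-Seq System V2 and a KAPA library kit and was sequenced as single reads of 100 bases, per the labels' protocols. The submitters' processing notes list HTSeq 0.6.1, DESeq2, TopHat2 2.1.0 and Trimmomatic 0.33, with builds NCBIM37 and mm9. Not given in the sources used here were their order, settings and use of strand. The authors deposited raw counts of reads per Ensembl gene, 1 file per library. Entries that name no gene held 80.0% to 84.4% of listed counts and were left out. These may count a read with several alignments more than once.

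Samples were grouped by genotype. Counts were tested with edgeR 4.0.16 (R 4.3.3) by quasi-likelihood after TMM normalization and filterByExpr, with Benjamini-Hochberg adjustment over 11724 genes at 0.05. CPM use TMM-scaled library sizes. Where a gene is listed with values for both genotypes, wildtype libraries 1 to 3 come first. DESeq2 1.42.0 and limma-voom 3.58.1 were alternatives, with other scaling, filters, libraries left out, a replicate block, and loess trends on GC content or length (known for 96.1% of tested genes). The test was checked on simulated data. Same-numbered libraries did not deviate together (r of 0.00025, -0.017 and 0.020 over genes), so the numbers were not treated as pairs. Library 1 of both genotypes had the most tested genes at 0 (5.63% and 5.57%). A correlation over genes misses such a loss where it strikes different genes in each library. Shared handling of libraries was thus not tested. No pair of libraries agreed within sampling noise.

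Symbols came from GENCODE vM21 (GRCm38), which matched 32938 gene IDs, as did transcript lengths and the copy search. Length was the mean over a gene's coding transcripts in the basic annotation, and windows were pooled over all its coding transcripts. The counts use another build, and the coordinates printed are those of GRCm38. The members and gene lists were chosen with earlier results of these data known. Named were members whose genotypes did not overlap at a mean of at least 2 CPM, the 2 of smallest p and the highest per kb in each group, isoform sets, all mitochondrially encoded members, members removed as low (Ndufb4, Ndufaf6 and those named in the text), and the 2 genes of smallest p per list. Nrf1, Gabpa and Yy1 were added for the promoter comparison. Figures were drawn with matplotlib 3.10.9. Results for some items withheld for evaluation are not reported here.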

Additional observations from a re-analysis of the deposited data

How the results depend on the processing

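With a common biological coefficient of variation of 0.661 and 3 libraries per genotype, a single member of median SE would need a change above 2-fold to leave 0 outside its 95% interval, and low members are limited by counts. Over all genes tested, where 2 were called, DESeq2 called 64, limma-voom 1, edgeR without a filter 98, removal of the GC trend 1 and of the length trend 1. Leaving out each of the 6 libraries in turn gave 0 calls, leaving out wildtype 1 and deficient 1 together gave 0, and the replicate block gave 0. Members called stayed at 0 in each of these alternatives, for nuclear and mitochondrially encoded genes. The replicate block changed no call among the members.

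The nuclear median log2 fold change lay between -0.12 (limma-voom) and 0.12 (length trend removed). The median of the mitochondrially encoded genes was 0.072 with the GC trend removed, 0.36 with the length trend removed and 0.18 to 0.30 with 1 library left out. With 1 library left out, 4 to 11 nuclear members were higher and 7 to 15 lower in every deficient library, and 2 to 5 mitochondrially encoded genes were higher. Without wildtype 1 and deficient 1 together these were 19, 10 and 4, with fewer libraries to separate. Shares over all genes are not given for these settings, so no excess among the members can be read from the counts. With pseudogene counts added, chosen after seeing the data, 3 nuclear members were higher and 5 lower; Ndufab1 and Atp5l no longer separated and Ndufs5 did. The cause of the moves with GC content and length was not tested.

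Of 35 named members 12 changed sign under at least 1 of 16 alternatives, none of them past the threshold. With the length trend removed, Atp5b was at 0.042, Sdha at 0.023, Cox6b1 at 0.14 and mt-Co1 at 0.083. With the GC trend removed, Atp5b was at 0.035, Cox6b1 at 0.13 and mt-Nd6 at -0.061. Without wildtype 1 and deficient 1, Sdhd was at -0.085, Cox7a2 at 0.25 and Ndufa4 at 0.075. With 1 library left out, the log2 fold change ranged from -0.32 to 0.014 for Atp5b, -0.54 to 0.010 for Atp5g1, -0.59 to 0.26 for Ndufa3, -0.33 to 0.082 for Sdha, -0.051 to 0.37 for Uqcrh, -0.37 to 0.21 for Cox6b1, -0.051 to 0.30 for Cox8a and -0.23 to 0.14 for mt-Co1.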
